A study of Mus musculus with 12 samples.

Results

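The BCL2 family decides whether a cell keeps its mitochondria intact, and 10 of its genes are described here in mouse neural progenitor cells treated with Torin1, an inhibitor of the kinase mTOR. The genes are a set of named family members, matched by gene symbol with no threshold on their values, and all 10 were found among the 53351 genes of the deposited table and among the 20240 genes tested. Bcl2, Bcl2l1, Bcl2l2 and Mcl1 encode survival proteins. Bax and Bak1 encode the effectors that open the outer mitochondrial membrane. Bcl2l11 (BIM), Bbc3 (PUMA), Bad and Bid encode BH3-only proteins, which share a single short domain with the rest of the family and start the death signal.

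In this pathway the survival proteins bind the effectors and the BH3-only proteins and so hold back cell death. When BH3-only proteins exceed what the survival proteins can bind, Bax and Bak1 form pores, cytochrome c leaves the mitochondria and caspases are activated. The embryonic cortex relies on this balance, since mouse progenitors that lack Mcl1 and newborn neurons that lack Bcl2l1 die. mTOR complex 1 promotes protein synthesis, most strongly from mRNAs that begin with a run of pyrimidines, and FOXO transcription factors, which growth factor signalling through AKT keeps out of the nucleus, are known activators of Bcl2l11 and Bbc3.

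The cells were wild-type primary progenitors from E13.5 mouse cortex, dissociated and grown overnight with bFGF and EGF. All received cycloheximide (100 ug/ml, 5 min) before lysis, after 2 h in DMSO, the solvent, or in 250 nM Torin1. A 10% aliquot of each lysate was kept as total mRNA, and polysome mRNA came from the gradient fractions holding mRNAs with over 3 ribosomes. There are 4 groups, total and polysome mRNA of DMSO and of Torin1 cells, each with 3 biological replicates, 12 libraries in all. The labels name no litter, pool or date, so what separates the cultures is unknown. The p-values rest on a spread per gene that is shared by the 12 libraries of both fractions. That spread mixes differences between cultures with those from fractionation, and libraries of the same lysate count as separate.

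Levels are in ppm, a gene's share of a library's summed signal after scaling between libraries, as mean ± SD over n = 3 libraries. The deposited values are not read counts, the depth in reads is unknown, and column totals ran from 14341674 to 19201406. Folds are differences of log2(value + 1) with their standard error (limma), and a gene is called changed at an adjusted p under 0.05. The value in that formula is not in ppm but is the scaled share times the mean column total. In cultured cells measured in bulk, fewer cells of a type and less RNA per cell cannot be told apart. Progenitor markers summed to between 3457 and 3556 ppm in total DMSO mRNA and neuron markers to between 2414 and 2509 ppm, so the cultures held both kinds of RNA. The white blood cell marker Ptprc lay between 0.244 and 0.275 ppm in total DMSO and between 0.397 and 0.480 ppm in total Torin1 mRNA, while Hba-a1, a haemoglobin gene of red blood cells, lay between 685 and 861 ppm.

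All 10 genes were expressed, and Bax was the most abundant of them. In total mRNA of DMSO cells Bax stood at 189 ± 5.86 ppm, Bcl2l1 at 80.95 ± 0.864 ppm and Mcl1 at 75.2 ± 3.925 ppm. Bad followed at 40.8 ± 1.81 ppm, Bcl2l2 at 23.2 ± 1.07 ppm, Bbc3 at 20.9 ± 1.315 ppm and Bak1 at 18.2 ± 1.39 ppm. The lowest were Bcl2 at 11.97 ± 0.421 ppm, Bcl2l11 at 10.1 ± 0.884 ppm and Bid at 9.75 ± 0.220 ppm. Among neighbours in this order, Bbc3 overlapped with Bak1 and Bcl2l11 with Bid, while the other neighbours did not overlap between libraries. No source used here says whether the values were divided by gene length. The lowest nonzero value of rarely seen genes fell from a median of 0.480 ppm for spans of 400 to 600 bases to 0.0801 ppm for spans of 2000 to 3000 bases, as a value per length would.

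**Figure D1:**
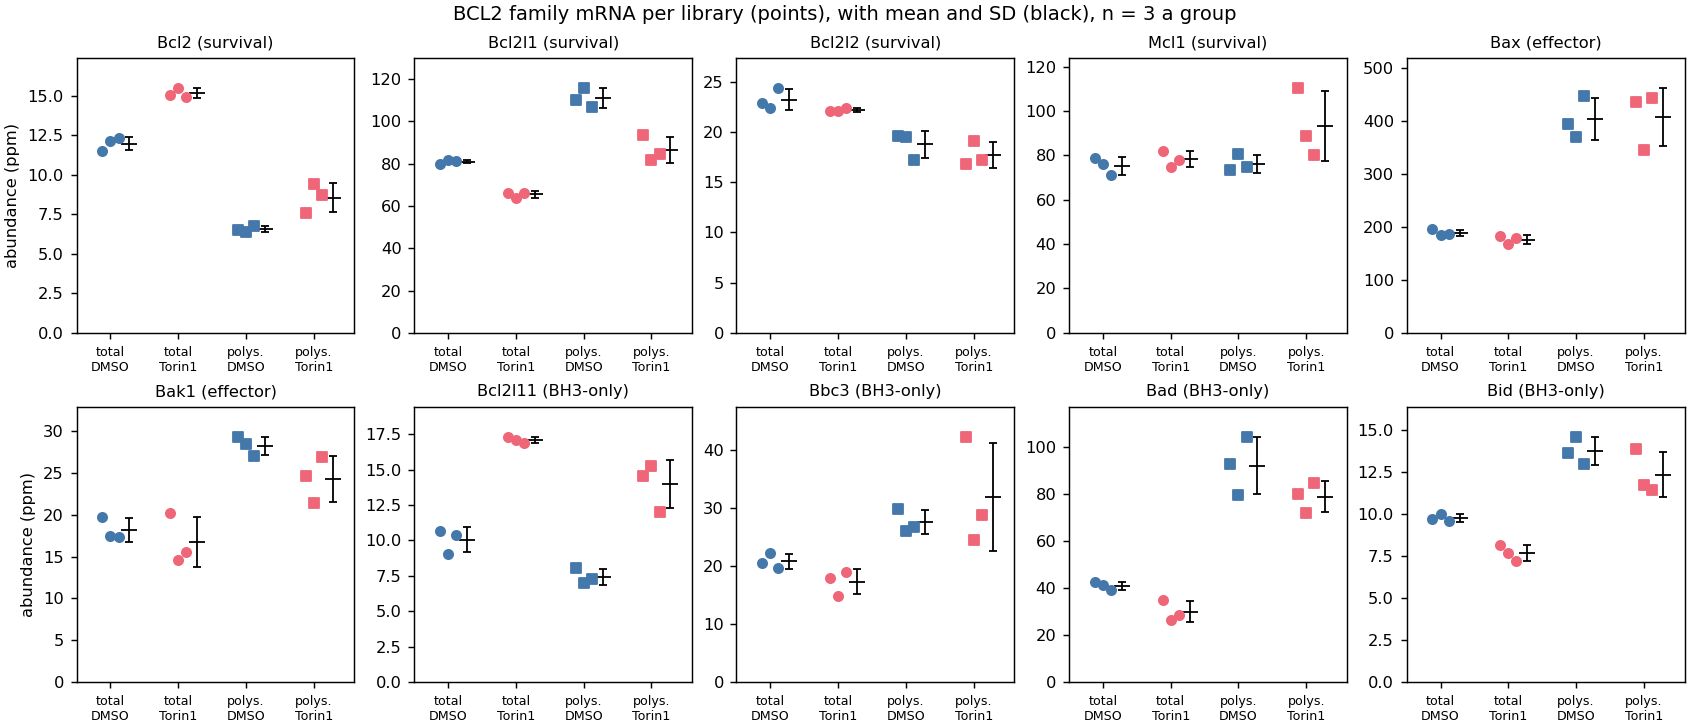
Abundance of the 10 BCL2 family genes in every library (points, ppm, linear axis from 0), with mean and SD of each group of 3 in black. Blue is DMSO and red is Torin1. Circles are total mRNA and squares are polysome mRNA. Bcl2l11 is higher in all Torin1 libraries of both fractions, Bcl2l1 is lower in all of them, and Bax and Bad are higher in polysome than in total mRNA.

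Torin1 raised the BH3-only gene Bcl2l11 and lowered the survival gene Bcl2l1, in total mRNA and in polysome mRNA. Bad fell in total mRNA and Bcl2 rose in polysome mRNA. In total mRNA 3 of 10 genes were called, 1 higher and 2 lower. There 7.39% of all genes tested and 11.8% of expressed genes (mean log2 ppm of at least 3) were called. In polysome mRNA 3 of 10 were called, 2 higher and 1 lower, where 10.0% of all genes and 16.8% of expressed genes were called. The Torin1 and DMSO libraries did not overlap for 7 of 10 genes in total mRNA and for 4 of 10 in polysome mRNA, against 33.4% and 24.0% of all genes tested. The median log2 fold of the 10 genes was -0.11 in total and -0.04 in polysome mRNA, against -0.01 and 0 over all genes tested.

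Bcl2l1 encodes BCL-XL, the survival protein of newborn neurons. It lies on chromosome 2 from 152758732 to 152833803 (RefSeq, GRCm38.p6) and shares 6308 bases of this span with Cox4i2. Total mRNA of Bcl2l1 read 79.96, 81.5 and 81.4 ppm in the DMSO libraries and 66.3, 63.7 and 66.3 ppm in the Torin1 libraries. Its polysome mRNA read 109.9, 116 and 106.9 ppm in DMSO and 93.4, 81.8 and 84.6 ppm in Torin1. Every Torin1 library lay below every DMSO library in both fractions. The log2 fold was -0.31 ± 0.06 in total mRNA (limma, adjusted p = 0.01184) and -0.36 ± 0.06 in polysome mRNA (limma, adjusted p = 0.003366), a level 0.808 and 0.780 times that in DMSO. The call on total mRNA was lost without total Torin1 replicate 2 (log2 fold -0.29, limma adjusted p = 0.05029). Scaling by column totals alone ended both calls, at -0.33 in total mRNA (limma, adjusted p = 0.06237) and -0.11 in polysome mRNA (limma, adjusted p = 0.46), and the polysome groups fitted alone gave an adjusted p = 0.06976 (limma).

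Bcl2, the founding survival gene, lies on chromosome 1 from 106538176 to 106714290. In total mRNA it read 11.5, 12.1 and 12.3 ppm in DMSO and 15.04, 15.5 and 14.9 ppm in Torin1. Its polysome mRNA read 6.54, 6.36 and 6.74 ppm in DMSO and 7.57, 9.39 and 8.73 ppm in Torin1. The groups did not overlap in either fraction, with every Torin1 library above every DMSO library. Polysome mRNA rose by a log2 fold of 0.38 ± 0.10 (limma, adjusted p = 0.02704), while the fold of 0.34 ± 0.10 in total mRNA missed the threshold (limma, adjusted p = 0.05324). The polysome call held without 2 of 6 libraries left out in turn, and was lost without each DMSO library and without polysome Torin1 replicate 2 (highest limma adjusted p = 0.08519), and with the polysome groups fitted alone (limma, adjusted p = 0.1519).

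Mcl1, a survival protein with a very short life that is needed by cortical progenitors, lies on chromosome 3 from 95656944 to 95663179. Total mRNA of Mcl1 read 78.7, 76.0 and 71.0 ppm in DMSO and 82.2, 74.9 and 78.1 ppm in Torin1, groups that overlap. Its polysome mRNA read 73.4, 80.9 and 74.6 ppm in DMSO and 110.6, 88.6 and 80.1 ppm in Torin1. The Torin1 polysome libraries spread widely, and the lowest of them lay within the DMSO range. The log2 fold was 0.06 ± 0.10 in total mRNA (limma, adjusted p = 0.7942) and 0.28 ± 0.10 in polysome mRNA (limma, adjusted p = 0.1148). Polysome Mcl1 passed the threshold without polysome Torin1 replicate 3 (log2 fold 0.38, limma adjusted p = 0.02091) and with column totals alone (0.52, limma adjusted p = 0.01885).

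Bcl2l2 encodes BCL-W, another survival protein of neurons, and lies on chromosome 14 from 54883366 to 54890858. Its total mRNA lay between 22.4 and 24.4 ppm in DMSO and between 22.05 and 22.4 ppm in Torin1, and its polysome mRNA between 17.2 and 19.6 ppm and between 16.8 and 19.1 ppm. The log2 folds were -0.06 ± 0.08 in total and -0.08 ± 0.08 in polysome mRNA, neither past the threshold, and the polysome fold was 0.16 with column totals alone. Bcl2l2 is shown by sequence because 1 RefSeq start (GRCm38.p6) has the form of mRNAs that depend on mTOR complex 1. That form is a C at the start followed by pyrimidines. It was the only one among the 16 starts examined for the 10 genes, which need not be all their starts. The start shown lies inside the span of Bcl2l2 given above. The capitals mark the run of 29 pyrimidines, at chr14:54883425-54883454 on the plus strand.
Bcl2l2: CTTTCTCCCTCCCTCCCTCCCTCCCTCCCa
Runs were counted only from a C at the start, and by that count no examined start of the other members had a run longer than 1. Of the 32851 RefSeq starts of the same table, 2.51% had a C with 4 or more pyrimidines after it. Rps19, a ribosomal protein gene of that mRNA class, had a polysome association (the Torin1 fold in polysome mRNA minus that in total mRNA) of -1.96 ± 0.20 in these libraries, while that of Bcl2l2 was -0.02 ± 0.11. A RefSeq start need not be the start used in these cells.

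The effectors Bax and Bak1 passed the threshold in neither fraction. Bax lies on chromosome 7 from 45461695 to 45466903. In total mRNA it read 195.7, 184.4 and 187.3 ppm in DMSO and 183.1, 167.4 and 178.7 ppm in Torin1, narrowly without overlap, with a log2 fold of -0.10 ± 0.10. Its polysome mRNA lay between 369.6 and 448 ppm in DMSO and between 344.9 and 444.7 ppm in Torin1, almost the same range, with a log2 fold of 0.01 ± 0.10. Bak1, on chromosome 17 from 27019812 to 27028627, lay between 17.3 and 19.8 ppm in total DMSO and between 14.6 and 20.2 ppm in total Torin1 mRNA. Its polysome mRNA lay between 27.1 and 29.3 ppm in DMSO and between 21.4 and 26.9 ppm in Torin1, without overlap, and its fold of -0.22 ± 0.12 was not called (limma, adjusted p = 0.3035). The whole span of Bak1 lies within that of Ggnbp1, and no source used here says how reads were assigned where genes overlap. This limit also holds for Bcl2l1, for Bcl2 (11183 bases shared with Gm37053), Bid (988 with Gm17812) and Bcl2l11 (215 with Acoxl).

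Bcl2l11 encodes BIM, which binds every survival protein of the family and also activates Bax, and lies on chromosome 2 from 128126038 to 128162547. Total mRNA of Bcl2l11 read 10.7, 9.05 and 10.4 ppm in DMSO and 17.3, 17.1 and 16.9 ppm in Torin1. Its polysome mRNA read 8.05, 6.97 and 7.27 ppm in DMSO and 14.6, 15.3 and 12.04 ppm in Torin1. All Torin1 libraries lay well above all DMSO libraries in both fractions. The log2 fold was 0.77 ± 0.11 in total mRNA, 1.70-fold (limma, adjusted p = 0.001853), and 0.90 ± 0.11 in polysome mRNA, 1.87-fold (limma, adjusted p = 0.000373). Bcl2l11 had the largest rise of the 10 genes in both fractions, and 0.878% of the 9222 expressed genes (mean log2 ppm of at least 3) had a higher fold in total mRNA. Both calls held in all 14 alternatives, with folds from 0.69 to 0.81 in total mRNA.

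Summed levels of endothelial and mesenchymal markers, and of microglia and blood markers, moved in the same direction as Bcl2l11 in total mRNA. Sums of the 9 endothelial and mesenchymal markers were 29.1 to 34.9 ppm in total DMSO and 48.4 to 57.9 ppm in total Torin1 mRNA. Of these markers 4 of 9 were called higher, Col1a1 among them. Their folds were positive for 7 of 9 in total and 6 of 9 in polysome mRNA, and those of Pdgfrb and Rgs5 were negative in both. In polysome mRNA the sums ran from 31.3 to 36.1 ppm in DMSO and from 47.7 to 50.4 ppm in Torin1. The 9 microglia and blood markers, mostly haemoglobin, summed to between 897.6 and 953 ppm in total DMSO and between 962.6 and 1121 ppm in total Torin1 mRNA, with 9 of 9 folds positive and 0 of 9 called. Their polysome sums overlapped, from 751 to 934 ppm in DMSO and from 850.2 to 1068 ppm in Torin1, with 6 of 9 folds positive. The endothelial markers Cdh5 and Kdr were low but not at 0 and lay between 0.95 and 2.20 ppm in every total library. Progenitor markers summed to between 3909 and 4015 ppm in total Torin1 mRNA and neuron markers to between 2573 and 2688 ppm. Both lay above their DMSO ranges, with positive folds for 8 of 9 and 7 of 8 markers. Vim had the largest rise in level, from 1133 to 1702 ppm. Fabp7 (2042 to 1859 ppm) and Tubb3 (1005 to 940.7 ppm) had the negative folds. In polysome mRNA the progenitor sums overlapped, from 4982 to 6054 ppm in DMSO and from 4542 to 6938 ppm in Torin1. So did the neuron sums, from 2853 to 2969 ppm and from 2854 to 3144 ppm. The part of any of these in the changes of BCL2 family genes was not tested.

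Bbc3 encodes PUMA, best known as a target of p53, and lies on chromosome 7 from 16308398 to 16318334. In total mRNA it read 20.6, 22.3 and 19.7 ppm in DMSO and 18.0, 14.9 and 19.1 ppm in Torin1, each Torin1 library below each DMSO library. Its polysome mRNA read 29.9, 25.99 and 26.8 ppm in DMSO and 42.4, 24.5 and 28.9 ppm in Torin1. The first Torin1 polysome library stood apart from the other two, which lay near the DMSO range. The log2 fold was -0.27 ± 0.17 in total mRNA (limma, adjusted p = 0.389) and 0.17 ± 0.17 in polysome mRNA (limma, adjusted p = 0.5892). Without polysome Torin1 replicate 1 the polysome fold was -0.05.

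The regions before the starts of Bcl2l11 and Bbc3 are shown because FOXO factors are known to act on both genes, one of which rose here and one of which was not called. RefSeq windows (GRCm38.p6) of 300 bases, from 250 before to 50 after a start, were found for all 10 genes, 16 windows in all. They need not cover every start of a gene. The windows of Mcl1, Bbc3 and Bcl2l1 do not reach the outer 5' end of the spans given for these genes. The FOXO core TGTTTAC, searched on both strands, lay in 2 of these 16 windows and in 3.65% of the 32851 windows of the table. The matches are in capitals, 227 bases before a start of Bcl2l11 (chr2:128125788-128125847, plus strand, read here as the reverse complement) and 167 bases before a start of Bbc3 (chr7:16310083-16310111, plus strand).
Bcl2l11: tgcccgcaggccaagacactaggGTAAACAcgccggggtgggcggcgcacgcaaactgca
Bbc3: tctggcgggttTGTTTACaaacaatgggg
The E-box CACGTG is a palindrome bound by MYC and by TFEB and its relatives. It lay in 2 of the 16 windows, from Bbc3 and Bax, and in 7.15% of all windows. It is in capitals 64 bases before another start of Bbc3 (chr7:16310356-16310383, plus strand) and 9 bases before the start of Bax (chr7:45466899-45466918, minus strand). The Bax window held a second match, 35 bases after the start, which is not printed.
Bbc3: cggggcgggcgCACGTGgcggcgtcgag
Bax: gcgatgatgatCACGTGact
A match describes letters and not a site in use, and the FOXO core and the E-box share no overlap in these windows.

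Bad, a BH3-only protein that growth factor signalling keeps inactive by phosphorylation, lies on chromosome 19 from 6941861 to 6951905. Its total mRNA read 42.5, 41.0 and 38.9 ppm in DMSO and 35.0, 26.4 and 28.3 ppm in Torin1. The groups did not overlap, and Bad fell by 0.46 ± 0.12 on the log2 scale (limma, adjusted p = 0.0362). Its polysome mRNA read 92.6, 79.3 and 103.9 ppm in DMSO and 79.8, 71.9 and 84.7 ppm in Torin1, overlapping groups with a log2 fold of -0.22 ± 0.12. The total call was lost without 5 of 6 libraries left out in turn (each of the DMSO libraries and Torin1 replicates 2 and 3, highest limma adjusted p = 0.1317) and without the abundance trend of the variance (limma, adjusted p = 0.08395). Bad shares 590 bases with Gpr137, whose own total mRNA fell by 0.48 (limma, adjusted p = 0.00301), and reads from the shared stretch cannot be told apart here.

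Bid, the BH3-only protein that links death receptors to mitochondria, lies on chromosome 6 from 120893119 to 120917062. Its total mRNA read 9.68, 9.99 and 9.57 ppm in DMSO and 8.13, 7.66 and 7.17 ppm in Torin1. The groups did not overlap, but the log2 fold of -0.35 ± 0.10 missed the threshold (limma, adjusted p = 0.05739). Its polysome mRNA lay between 12.9 and 14.6 ppm in DMSO and between 11.4 and 13.9 ppm in Torin1, with a log2 fold of -0.16 ± 0.10.

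**Figure D2:**
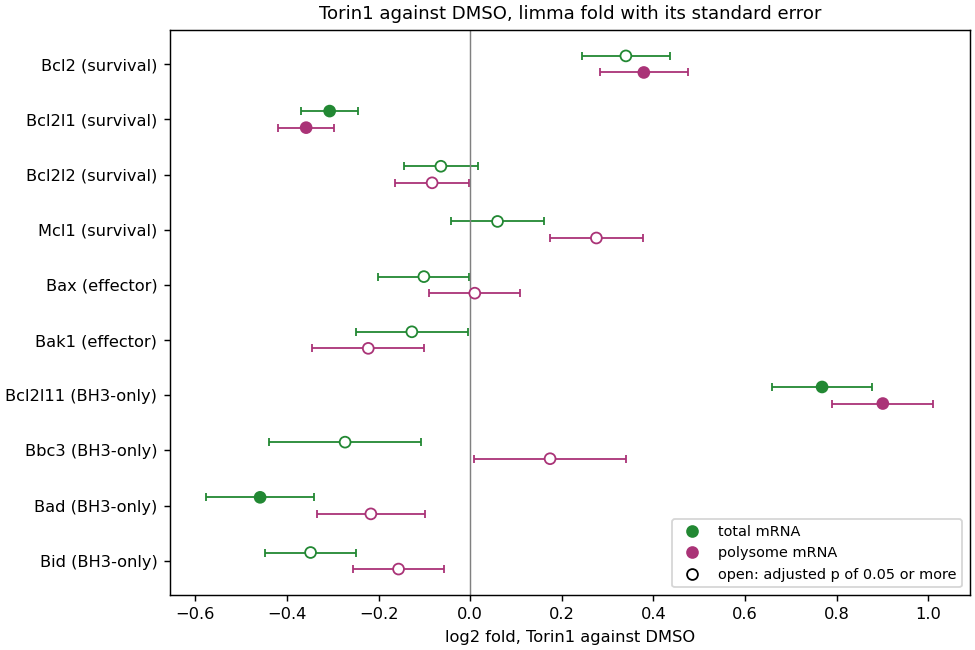
Log2 fold, Torin1 against DMSO, of each gene in total mRNA (green) and polysome mRNA (purple), with its standard error from the limma fit of 12 libraries. Filled points passed the threshold. Bcl2l11 lies farthest right at 0.77 and 0.90, Bcl2l1 is at -0.31 and -0.36, and Bax is near 0.

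Whether Torin1 moved these mRNAs onto or off polysomes was asked by the interaction, polysome association as defined above. None of the 10 genes passed the threshold, where 0.726% of all genes were called, 4 higher and 143 lower. At an unadjusted p under 0.05 limma also gave 0 of 10, against 1192 of 20240 genes tested. The folds ran from -0.10 ± 0.17 for Bak1 to 0.45 ± 0.24 for Bbc3, whose 95% interval reached from -0.07 to 0.96. All 4 BH3-only genes had positive folds, 0.45 for Bbc3, 0.24 ± 0.17 for Bad, 0.19 ± 0.14 for Bid and 0.13 ± 0.16 for Bcl2l11. Mcl1 stood at 0.22 ± 0.14 with an interval from -0.10 to 0.53, and Bcl2l1 at -0.05 ± 0.09 with an interval from -0.24 to 0.14. These intervals leave room for shifts in either direction, and the misses do not show that association stayed the same.

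For scale, Rps19 fell from 1270 ± 200.9 to 363 ± 72.4 ppm in polysome mRNA, an association of -1.96 ± 0.20 (limma, adjusted p = 0.000386). Eef1a1, an elongation factor gene of the same mRNA class, had -1.20 ± 0.16 (limma, adjusted p = 0.00239). The lower 95% bounds of the 10 family genes, the lowest of them -0.47 for Bak1, all lay above these values. Scaling by column totals alone raised the median association over all genes from 0.03 to 0.29 and turned the folds of Bcl2l1, Bcl2l2 and Bak1 to 0.22, 0.25 and 0.18, with 0 of 10 called.

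The ratio of polysome to total mRNA with the same replicate number gave the same picture in levels. For Bbc3 it was 1.45, 1.17 and 1.36 in DMSO and 2.35, 1.65 and 1.52 in Torin1. For Bid it was 1.41, 1.46 and 1.35 in DMSO and 1.70, 1.53 and 1.59 in Torin1. These were the 2 of 10 genes whose ratios did not overlap between treatments, while the ratios of 10.3% of 16588 genes (those above 0 in every total library) did not overlap. The labels do not say that a shared number marks 1 lysate, and the data do not show it. Whether the ratios overlap rests on that pairing. For Mcl1 it was 0.932, 1.06 and 1.05 in DMSO and 1.35, 1.18 and 1.02 in Torin1, with overlap.

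Most of the family differed between polysome and total mRNA, and the death genes Bax and Bad had the highest folds of polysome over total mRNA. In DMSO cells 8 of 10 genes were called, 5 higher and 3 lower in polysome mRNA, where 41.0% of all genes tested and 65.9% of expressed genes were called. In Torin1 cells 9 of 10 were called, 6 higher and 3 lower, where 39.7% of all genes and 64.6% of expressed genes were called. The DMSO polysome and total libraries did not overlap for 9 of 10 genes, against 53.2% of all genes tested. Bad had a log2 fold of 1.16 ± 0.12 in DMSO (limma, adjusted p = 9.16e-06) and 1.40 ± 0.12 in Torin1 (limma, adjusted p = 3.339e-06), and Bax had 1.09 ± 0.10 and 1.20 ± 0.10. Of the expressed genes 4.76% had a higher fold than Bad in DMSO, and 5.92% a higher fold than Bax.

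Bak1 (0.64 ± 0.12 in DMSO), Bid (0.49 ± 0.10) and the survival gene Bcl2l1 (0.45 ± 0.06) were also higher in polysome mRNA under both treatments. Bbc3 was higher in Torin1 cells at 0.85 ± 0.17 (limma, adjusted p = 0.001358), and its fold of 0.40 ± 0.17 in DMSO missed the threshold (limma, adjusted p = 0.07553). On the other side, Bcl2 was lower in polysome mRNA by a wide margin, at -0.87 ± 0.10 in DMSO (limma, adjusted p = 1.796e-05) and -0.83 ± 0.10 in Torin1. Bcl2l2 was lower at -0.31 ± 0.08 and -0.33 ± 0.08. Bcl2l11 was lower at -0.43 ± 0.11 in DMSO (limma, adjusted p = 0.00704) and at -0.30 ± 0.11 in Torin1 (limma, adjusted p = 0.0475), the latter called in 5 of 15 alternatives. Total and polysome mRNA came from the same lysates, and with the culture as a block Bcl2l11 in Torin1 missed the threshold (limma, adjusted p = 0.05358) while Bbc3 in DMSO passed it (limma, adjusted p = 0.04034). Mcl1 was called in neither treatment, at 0.02 ± 0.10 and 0.24 ± 0.10.

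Thus BIM and PUMA, both BH3-only genes, lay on opposite sides in Torin1 cells, and so did Bcl2 and Bcl2l1, both survival genes. These differences depend on how fractions are scaled to each other. With column totals alone the median over all genes moved from -0.03 to -0.37 in DMSO, the share of called genes that were higher in polysome mRNA moved from 50.1% to 21.6%, and the calls on Bcl2l1, Bak1 and Bid were lost. Bax, Bad, Bcl2 and Bcl2l2 were called in all 15 alternatives in each treatment.

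**Figure D3:**
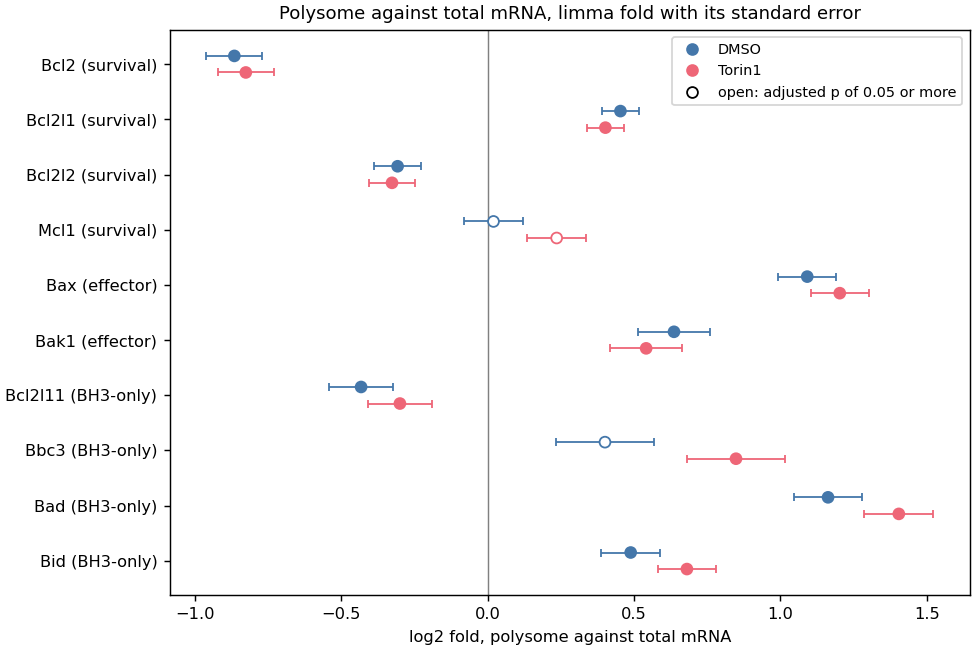
Log2 fold of polysome against total mRNA for each gene in DMSO (blue) and Torin1 (red), with its standard error from the limma fit of 12 libraries. Filled points passed the threshold. Bad and Bax lie farthest right, above 1, Bcl2 lies farthest left at -0.87 and -0.83, and Mcl1 is open in both.

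Ratios between 2 genes within a library need no scaling between libraries, and they were formed after the values had been seen, so they carry no test. The ratio of Bcl2l11 to Bcl2l1 in total mRNA was 0.134, 0.111 and 0.128 in DMSO and 0.262, 0.269 and 0.255 in Torin1. In polysome mRNA it was 0.0732, 0.0601 and 0.0680 in DMSO and 0.156, 0.187 and 0.142 in Torin1. The mean ratio in Torin1 was thus 2.11 times that in DMSO in total mRNA and 2.41 times in polysome mRNA, with no overlap. Against Mcl1, the ratio of Bcl2l11 was 1.63 times that in DMSO in total and 1.55 times in polysome mRNA, again with no overlap.

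The survival genes also moved relative to each other. Mcl1 to Bcl2l1 went from 0.930 ± 0.0562 to 1.20 ± 0.0364 in total mRNA and from 0.687 ± 0.0173 to 1.07 ± 0.119 in polysome mRNA, so that Mcl1 became the more abundant of the pair in total mRNA. Bax to Bcl2l1 was 1.15 times the DMSO ratio in total and 1.29 times in polysome mRNA, with no overlap in either. Bbc3 to Bcl2l1 overlapped in total mRNA (1.03 times) and did not in polysome mRNA (1.46 times). The summed level of the 4 survival genes over that of the 6 death genes hardly moved, from 0.663 ± 0.0156 to 0.684 ± 0.0261 in total and from 0.374 ± 0.0483 to 0.364 ± 0.0473 in polysome mRNA, with overlap in both. Bax makes up most of the death sum. In both treatments this ratio was lower in polysome than in total mRNA.

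**Figure D4:**
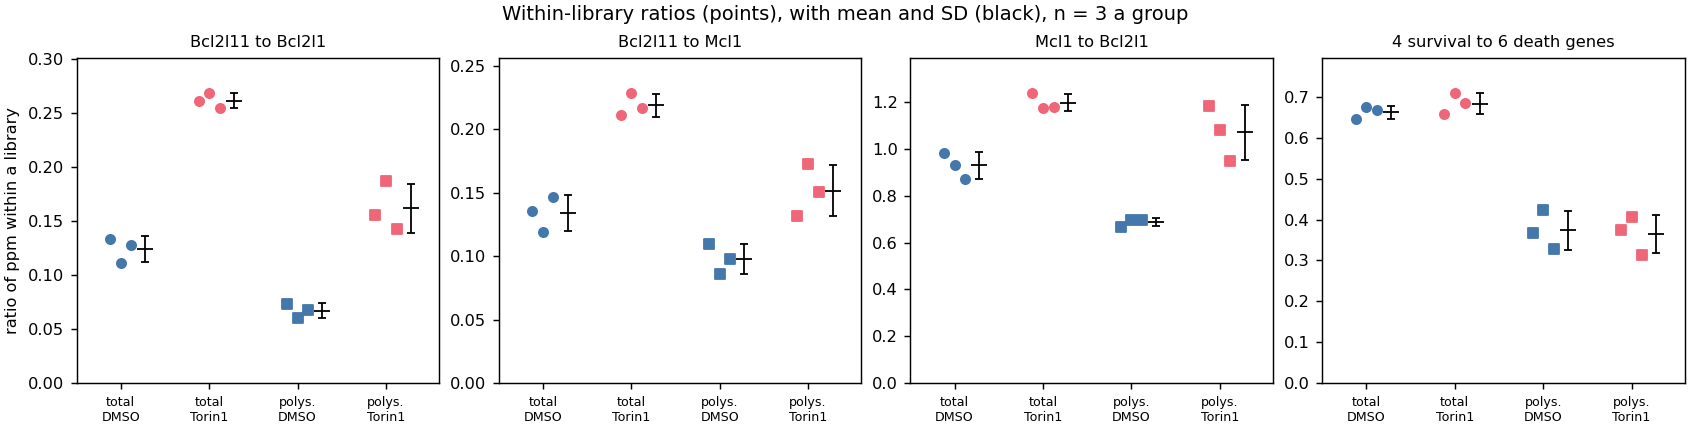
Ratios of ppm within each library (points, linear axis from 0), with mean and SD of each group of 3 in black. Blue is DMSO and red is Torin1. Circles are total and squares polysome mRNA. Bcl2l11 to Bcl2l1 stands at 0.134 or below in every DMSO library and at 0.142 or above in every Torin1 library, while the summed ratio of survival to death genes overlaps between treatments.

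In 4 lists of other apoptosis genes 7 of 54 genes tested were called in total mRNA and 9 of 54 in polysome mRNA. Of all genes 7.39% and 10.0% were called, and of expressed genes 11.8% and 16.8%. Of 15 other BCL2 family genes 13 were tested: 1 fell in total mRNA, 1 rose in polysome mRNA and none changed in association. Pmaip1 (NOXA), a BH3-only gene whose protein binds MCL1, read 2.07, 1.93 and 1.33 ppm in DMSO and 3.43, 4.27 and 4.58 ppm in Torin1 polysome mRNA. It rose there by 1.19 ± 0.21 (limma, adjusted p = 0.003363), while its total fold of 0.60 ± 0.21 missed the threshold (limma, adjusted p = 0.1103). Bmf, a BH3-only gene whose protein is held at the cytoskeleton, was not called, at 0.33 ± 0.30 in total and 0.76 ± 0.30 in polysome mRNA. Bcl2l12 fell in total mRNA by 0.51 ± 0.11 (limma, adjusted p = 0.01553) and stood at -0.02 ± 0.11 in polysome mRNA. The Bcl2l12 call was lost without total DMSO replicate 2 or 3 or total Torin1 replicate 3 (highest limma adjusted p = 0.06815), and the Pmaip1 call with the polysome groups fitted alone (limma, adjusted p = 0.06868). Bcl2l10 was listed at 0 in all 12 libraries.

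Downstream of mitochondria, of 18 apoptosome, caspase and inhibitor genes 1 fell in total and 2 fell in polysome mRNA, near the 7.39% and 10.0% of all genes called in either direction, with a median log2 fold of -0.11 and -0.12. Dffa, the inhibitor of the nuclease that cuts DNA in dying cells, fell by 0.39 ± 0.09 in total and by 0.33 ± 0.09 in polysome mRNA. Endog, a mitochondrial nuclease, fell by 0.91 ± 0.20 in polysome mRNA (limma, adjusted p = 0.01265). Of the 6 caspases in the lists none passed the threshold in either fraction. The Dffa calls were lost without each of 5 total libraries (all but Torin1 replicate 1) and of 4 polysome libraries (DMSO and Torin1 replicate 2), and the Endog call without polysome DMSO replicate 1 (limma, adjusted p = 0.0521). With column totals alone both polysome calls were lost, at -0.08 for Dffa and -0.67 for Endog (limma, adjusted p = 0.05092).

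In the death receptor arm 2 of 8 genes fell in each fraction, the same 2, where 4.35% of all genes fell in total and 5.45% in polysome mRNA. The medians were -0.26 and -0.36. Tnfrsf1a, the TNF receptor, went from 10.4 ± 0.596 to 6.76 ± 0.558 ppm in total mRNA, a log2 fold of -0.61 ± 0.13 (limma, adjusted p = 0.01601), and fell by 0.45 ± 0.13 in polysome mRNA. Ripk1, the kinase bound to that receptor, fell by 0.53 ± 0.14 and by 0.67 ± 0.14. The call on polysome Ripk1 held without each of 6 libraries left out in turn and was lost with the polysome groups fitted alone (limma, adjusted p = 0.0688). In total mRNA the Tnfrsf1a call was lost without DMSO replicate 3 or Torin1 replicate 2 and the Ripk1 call without any library but Torin1 replicate 3, and in polysome mRNA the Tnfrsf1a call without any but Torin1 replicate 1 (highest limma adjusted p = 0.1418). With column totals alone all 4 calls were lost, and the polysome folds were -0.21 for Tnfrsf1a and -0.43 for Ripk1.

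Among 15 genes that act on the members, 2 rose and 1 fell in total mRNA. In polysome mRNA 2 rose and 2 fell, and 1 fell in association. Over all genes tested 7.39%, 10.0% and 0.726% were called in either direction in these 3 comparisons. Foxo1, an activator of Bcl2l11 transcription, went from 2.50 ± 0.221 to 5.68 ± 0.343 ppm in total mRNA, a log2 fold of 1.17 ± 0.17 (limma, adjusted p = 0.001996), and rose by 1.05 ± 0.17 in polysome mRNA. Foxo3, its relative, rose by 0.51 ± 0.11 and by 0.59 ± 0.11, the former a call lost without total DMSO replicate 1 or 2 or total Torin1 replicate 2 or 3 (highest limma adjusted p = 0.07777) and with column totals alone (limma, adjusted p = 0.08421). With the polysome groups fitted alone both polysome calls were lost (limma, adjusted p = 0.06128 for Foxo1 and 0.07266 for Foxo3). Trp53, the gene of p53, was not called, at -0.18 ± 0.09 in total and -0.11 ± 0.09 in polysome mRNA.

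Dynll1 and Dynll2 encode the dynein light chains that hold BIM and BMF on the cytoskeleton. Dynll1 fell in total mRNA by 0.61 ± 0.17 (limma, adjusted p = 0.04674), a call lost without each of the 6 libraries, and Dynll2 fell in polysome mRNA by 0.27 ± 0.07 (limma, adjusted p = 0.02783), a call lost without each DMSO library and without Torin1 replicate 2. With column totals alone the Dynll2 fold was -0.03. Tpt1, which encodes a translationally controlled protein reported to stabilise MCL1, fell in polysome mRNA from 1736 ± 152 to 666.3 ± 98.3 ppm. Its association was -1.49 ± 0.15 (limma, adjusted p = 0.0003766), while its total fold of 0.10 ± 0.10 was not called. In the same polysome libraries the Mcl1 fold of 0.28 ± 0.10 was not called (limma, adjusted p = 0.1148). MCL1 protein was not measured, and a link between the 2 genes was not tested.

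**Figure D5:**
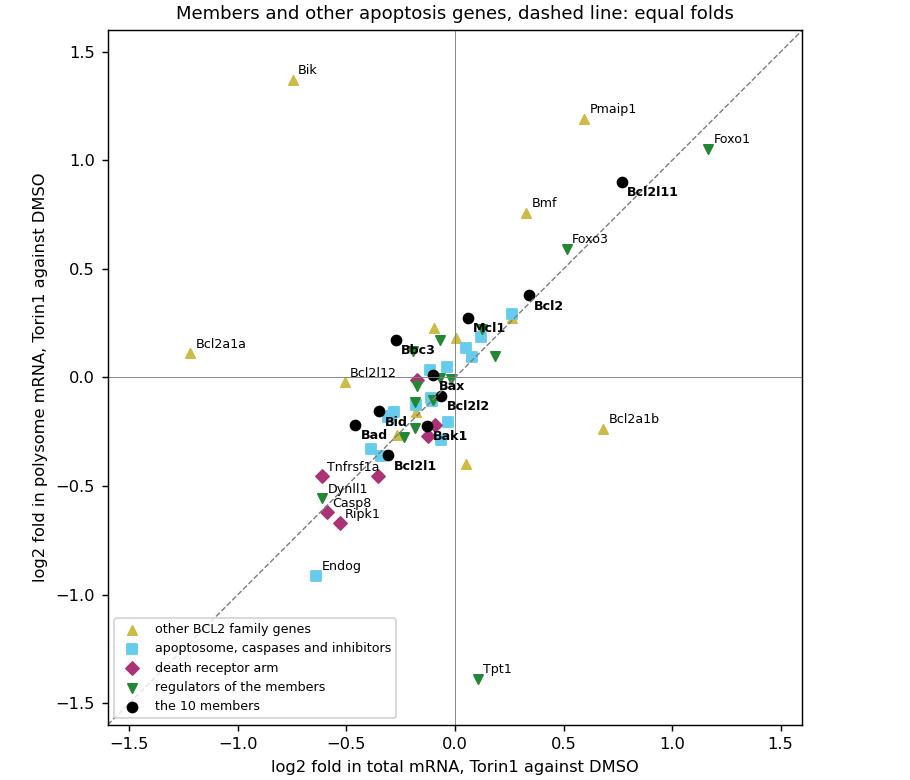
Log2 fold, Torin1 against DMSO, in total mRNA (horizontal) and in polysome mRNA (vertical) for the 10 members (black, bold names) and 51 listed apoptosis genes with a group mean of at least 1 ppm. The dashed line marks equal folds. Bcl2l11, Foxo1, Foxo3 and Bcl2 lie near the line at upper right, Tpt1 lies far below it, and Bik and Bcl2a1a, far from it, had group means of at most 1.2 ppm.

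Across the 12 libraries the members followed different courses, and these 12 points share the difference between fractions. Bax and Bad ran most alike (Pearson's r = 0.968 of log2 levels), and Bcl2 and Bid ran most opposed (r = -0.971), each over 12 libraries in 4 groups and so given without a test. Among 8711 expressed genes the closest to Bcl2l11 were Dusp4, a phosphatase that acts on ERK, at r = 0.980 and Zfp36l1, an RNA-binding protein that promotes mRNA decay, at r = 0.979. Closest to Bcl2l1 were Pomgnt2 at 0.988 and Ppp1r8 at 0.986, closest to Bcl2 were Zfp280d at 0.992 and Acvr2b at 0.990, and closest to Bad were Mrpl12 and Mtx2, both genes of mitochondrial proteins, at 0.992 and 0.991.

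Within groups Pearson's r between libraries lay between 0.975 and 0.992 over expressed genes. The library of total Torin1 replicate 2 held 2069 ppm of Rn7sk, a small nuclear RNA, against 38.7 to 182.8 ppm in the other 5 total libraries. Without that library 1 of 10 members, Bcl2l11, was called in total mRNA.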

How the data were processed

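Total and polysome mRNA were sequenced in 12 libraries, 4 groups of 3, with groups read from the titles. STAR 2.7.9a, HTSeq 0.6.0 and mm10 appear in the submitters' processing notes, with no role or order. The authors deposited 1 table of a signal per gene for the 12 libraries, with 0 other sample columns. No source used here states its scaling. Between 98.264% and 100% of values lay within 0.011 of a whole step, and each column held 99969909 to 99976838 steps, so a step is a share of the column and not a read, and no count model was used.

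Values were scaled by column totals and then by trimmed means of log ratios without weights (code written for this work, trims of 0.3 and 0.05). Genes whose deposited signal reached 1 in at least 3 libraries were fitted with limma 3.58.1 (R 4.3.3) on log2(value + 1). The value was the scaled share times the mean column total. The fit used 12 libraries with 4 group means and an abundance trend. P-values were adjusted by Benjamini-Hochberg over 20240 genes, separately for 5 comparisons, with 0.05 as the threshold, two-sided. The fit was tested on simulated data. The members are all named. From the other lists called genes are named, at most 4 a list and comparison, with Pmaip1, Bmf, Trp53, Foxo1 and Foxo3. The members and lists were chosen with earlier results of these data known. Likeness was Pearson's r over the 12 libraries, without predicted or accession names. Alternatives were 2 other scalings, 2 filters, a pseudocount of 0.1, the compared groups alone, blocks, no abundance trend and each library left out.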

Additional observations from a re-analysis of the deposited data

How the results depend on the processing

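Of the members' folds under the alternatives, 719 kept direction and side of the threshold, 28 lost the threshold, 10 gained it and 23 changed sign, none of the latter from a call to a call. Column totals in place of the trimmed mean raised the median of all genes by 0.23 in polysome mRNA and to 0.29 in association, and lowered it to -0.37 (DMSO) and -0.11 (Torin1) between fractions. The share of called genes that were higher moved from 45.6% to 89.8% in polysome mRNA, from 2.72% to 21.2% in association and, between fractions, from 50.1% to 21.6% in DMSO. Polysome folds then became 0.16 for Bcl2l2, 0.024 for Bak1, 0.0298 for Bad and 0.089 for Bid, association became 0.22 for Bcl2l1, 0.25 for Bcl2l2 and 0.18 for Bak1, and Mcl1 between fractions in DMSO became -0.35 (limma, adjusted p = 0.0448). The same scaling called 841 genes in total and 3240 in polysome mRNA, against 1496 and 2027.

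The compared groups alone, with the spread taken from those libraries only, called 2657 genes and 5 members in total mRNA (Bcl2 and Bid joining). In polysome mRNA they called 433 genes and 1 member, Bcl2l11. A value of at least 1 in all 12 libraries, with fewer genes tested, called 5 members in total mRNA. The cause of these shifts was not tested. Each library left out in turn gave 739 to 898 genes and 1 to 3 members in total mRNA, every omission below the full count by over 1.5 times. It gave 1194 to 2722 genes in polysome mRNA (1194 without DMSO replicate 3, 1262 without DMSO replicate 1) and 99 to 224 in association (224 without polysome Torin1 replicate 3). Sign changes occurred for association of Bcl2l2 (-0.080 to 0.019), Bak1 (-0.18 to 0.050) and Bcl2 (-0.021 to 0.12), for polysome folds of Bax (-0.056 to 0.13) and Bbc3 (-0.049 to 0.35), and for Mcl1 between fractions in DMSO (-0.031 to 0.047).

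Total and polysome mRNA came from the same lysates, but the labels do not say that a shared replicate number marks 1 lysate or, between treatments, 1 batch. Same-number deviations correlated between -0.23 and 0.33, so the data do not show the pairing. With the number as a block 1269 genes were called in total and 1868 in polysome mRNA, with 3 members in each. A block by culture gave 91 genes in association and 0 members. Blocks moved polysome against total mRNA of Bcl2l11 in Torin1 (limma, adjusted p = 0.05531 and 0.05358) and of Bbc3 in DMSO (limma, adjusted p = 0.04034 by culture) across the threshold, and no other member. With the number as a block the calls on total Ripk1 (limma, adjusted p = 0.06168) and polysome Tnfrsf1a (limma, adjusted p = 0.06528) were lost. Read depth is unknown, so no precision from depth is given.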
